A study of Rattus norvegicus with 4 samples.

Results

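The tumour necrosis factor gene Tnf was followed with genes for its receptors and for proteins that relay or restrain inflammatory signalling, in primary rat astrocytes. The set was listed by symbol as 10 genes, Tnf, Tnfrsf1a, Tnfrsf1b, Ripk2, Traf1, Birc3, Tnfaip2, Tnfaip3, Tnip3 and Zc3h12a. Of these, 8 had a probe with a single gene symbol, among 18166 genes with such a probe, and each of the 8 had 1 probe. Traf1 and Tnfaip3 were not analysed here. Ripk2 and Tnip3 were chosen on their course across these same 4 arrays, and the whole set was put together with earlier results of these arrays known. All differences below are therefore descriptions.

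Astrocytes are glial cells that support neurons and respond to inflammation. They were grown from the cerebral cortex of Sprague-Dawley rats aged 1 day and held in serum-free medium for 2 days, a step meant to remove microglia and meningeal cells. Each of 4 conditions was measured on 1 array. The untreated culture received a control siRNA and no agent. The IFN-γ culture received the control siRNA and interferon-γ (IFN-γ), a cytokine of lymphocytes. The third culture received the control siRNA, IFN-γ and an agent that the labels call GW, without a fuller name or a dose. The fourth received an siRNA against SHP with IFN-γ and GW. Treatment lasted 3 h, and every culture, the untreated one included, had been transfected with an siRNA. The labels do not say how many animals gave each culture or whether the 4 cultures came from 1 preparation. With 1 array a condition there is no replicate error and no test, and the effect of a treatment cannot be told apart from chance differences between single cultures or arrays. Precision is limited by this number of arrays.

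The TNF protein is made as a membrane-bound trimer and released by proteolytic shedding. It binds TNF receptor type I, encoded by Tnfrsf1a, which most cells carry and which has a death domain, and TNF receptor type II, encoded by Tnfrsf1b, which has none. Bound receptors gather adaptor proteins and ubiquitin ligases that activate NF-κB, a transcription factor that drives Tnf itself and many inhibitors of the same route. In the brain, microglia and astrocytes are both known sources of TNF.

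Upstream sequences are shown for Tnf and for Zc3h12a, which were higher with IFN-γ, and for both receptor genes, whose levels were similar in the untreated and IFN-γ cultures. They come from RefSeq, rat assembly GRCr8, which had a 250-base window before the start site for 6 of the 8 measured genes. All are written 5′ to 3′ on the gene's strand, ending at the base before the gene. The Zc3h12a window is shown for the 184 bases that lie outside the gene. Those of Tnfaip2 and Tnip3 precede start sites 694 and 5828 bases inside the gene, lie wholly within it and are not shown. Capitals mark motif matches. The windows lie at chr20:3626435-3626684 on the plus strand for Tnf, chr5:142670052-142670235 on the minus strand for Zc3h12a, chr4:159836869-159837118 on the plus strand for Tnfrsf1a and chr5:162387412-162387661 on the minus strand for Tnfrsf1b.
Tnf: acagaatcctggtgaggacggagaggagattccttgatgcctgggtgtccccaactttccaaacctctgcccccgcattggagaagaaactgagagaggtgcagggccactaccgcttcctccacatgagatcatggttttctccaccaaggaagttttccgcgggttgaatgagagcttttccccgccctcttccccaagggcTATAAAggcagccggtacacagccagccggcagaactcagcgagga
Zc3h12a: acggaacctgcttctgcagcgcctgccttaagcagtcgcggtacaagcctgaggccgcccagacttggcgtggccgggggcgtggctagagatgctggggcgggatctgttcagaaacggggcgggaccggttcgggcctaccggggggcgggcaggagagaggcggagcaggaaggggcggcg
Tnfrsf1a: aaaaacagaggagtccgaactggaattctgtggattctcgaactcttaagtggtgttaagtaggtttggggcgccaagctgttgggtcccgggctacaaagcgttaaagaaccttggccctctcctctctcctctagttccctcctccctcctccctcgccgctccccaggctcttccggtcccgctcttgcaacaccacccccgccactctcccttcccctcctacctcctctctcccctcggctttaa
Tnfrsf1b: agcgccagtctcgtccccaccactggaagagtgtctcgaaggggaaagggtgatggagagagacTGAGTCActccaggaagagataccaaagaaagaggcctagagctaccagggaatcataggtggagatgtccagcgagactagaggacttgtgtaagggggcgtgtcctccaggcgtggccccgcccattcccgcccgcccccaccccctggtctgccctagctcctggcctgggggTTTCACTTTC

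The motifs were searched on both strands over the full 250 bases. In Tnf the capitals mark a TATA box (TATAAA), 46 to 41 bases before the start, which 12.9% of all 33469 windows held on either strand. In Tnfrsf1b they mark an AP-1 motif (TGANTCA, held by 6.34% of windows) 186 to 180 bases before the start. They also mark an ISRE, the interferon-stimulated response element, in the last 10 bases before the start (3.41% of windows). It was searched as a pair of GAAA runs with any 2 bases between them. Among windows of genes past the signal filter described below, 6.70% held the TATA box, 4.57% the AP-1 motif and 2.75% the ISRE. None of the measured genes with a window (0 of 6) matched the NF-κB motif, which 6.33% of all windows and 8.42% of those of genes past that filter held. The gamma-activated site GAS (TTCNNNGAA) was also searched and had no match either (0 of 6). It was held by 7.67% of all windows and 5.84% of those of genes past the filter. The 6 include the Tnfaip2 and Tnip3 windows that begin inside the gene. The window of Tnfaip3, which was listed but not measured here, held 3 NF-κB matches. These matches did not overlap each other. They describe letters in a short window, and say nothing of binding outside or inside it.

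The values are log2 signals, and a gene entered the comparisons when at least 1 of its 4 values was 5.83 or more, 5.83 being the median of the table. That left 11790 genes, and all 8 measured members reached 5.83 in every array. Array medians ran from 5.79 to 5.87. As a check of the siRNA, Nr0b2, which encodes the nuclear receptor SHP, stood at 5.33 in the untreated culture, 5.14 with IFN-γ, 5.20 with IFN-γ and GW, and 3.45 with SHP siRNA, all below the median of the table. The astrocyte genes Gfap (12.03 to 12.11) and Aqp4 (11.01 to 12.01) were at high signal in all 4 arrays. The gap junction gene Gjb6 was below 5.83 in all 4, and Aldh1l1 and Glul, also on the astrocyte list, were not analysed here. All 18 microglia markers with a probe, of 19 listed, were at or above 5.83 in every array, the lowest being Tmem119 at 6.31. The same held for 7 of 8 oligodendrocyte lineage markers with a probe, 7 of 10 meningeal and fibroblast markers and 4 of 9 neuron markers. The cultures thus held transcripts of the microglia list and of these other lists as well.

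With IFN-γ, Tnf and the genes for the signalling and feedback proteins were higher than in the untreated culture, and the receptor genes were not at 2-fold. Tnf was 9.08-fold higher, the ubiquitin ligase gene Birc3 6.14-fold, the kinase gene Ripk2 5.84-fold, Tnfaip2 5.54-fold and the ribonuclease gene Zc3h12a 3.62-fold. In all, 5 of 8 were at least 2-fold higher, where 1.61% of the 11790 genes were. None was at least 2-fold lower (0 of 8), where 0.288% were. The median log2 difference of the 8 was 2.16, against -0.04 over all genes, and the middle 95% of all genes lay between -0.48 and 0.67. The set was put together with this comparison known, so nothing is read from that contrast.

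Tnf had log2 signals of 8.31 in the untreated culture, 11.49 with IFN-γ, 10.76 with IFN-γ and GW, and 11.44 with SHP siRNA, IFN-γ and GW. The untreated culture was the low one, and the cultures with IFN-γ alone and with SHP siRNA were nearly level, 0.06 apart. Its log2 difference of 3.18 with IFN-γ was the 8th highest of 11790.

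Of the receptor genes, Tnfrsf1a stood at 10.56 untreated, 10.56 with IFN-γ, 10.81 with GW added and 10.26 with SHP siRNA. Its difference with IFN-γ was 0.0035, with a sign that turned after quantile normalization (-0.0064). Tnfrsf1b stood at 8.34, 8.67, 8.49 and 8.21 in the same order of conditions, and its difference with IFN-γ was 0.33, inside the middle 95% of genes.

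Birc3, which encodes the apoptosis inhibitor and ubiquitin ligase cIAP2 of the TNF receptor complex, stood at 8.55 untreated and at 11.17, 10.68 and 11.10 in the treated cultures. Ripk2 encodes the kinase that relays signals of the intracellular receptors NOD1 and NOD2 to NF-κB. Its values were 9.20 untreated, 11.75 with IFN-γ, 10.42 with GW added and 11.55 with SHP siRNA. Tnfaip2, named for its induction by TNF, had 9.09, 11.56, 10.36 and 11.24. The differences with IFN-γ of 2.62 for Birc3, 2.55 for Ripk2 and 2.47 for Tnfaip2 ranked 20th, 23rd and 29th from the highest.

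The feedback genes differed in size. Zc3h12a encodes Regnase-1, a ribonuclease that degrades inflammatory mRNAs, and stood at 8.02, 9.88, 9.17 and 9.42 in the order untreated, IFN-γ, GW added and SHP siRNA. Its difference of 1.85 with IFN-γ ranked 65th. Tnip3 encodes ABIN-3, a binding partner of the deubiquitinating enzyme A20 that restrains NF-κB, and stood at 6.79, 7.78, 5.84 and 6.60. Its difference of 0.99 with IFN-γ was just short of 2-fold and passed it after median centring or cyclic loess, which gave 6 members at 2-fold. The GW array gave the lowest Tnip3 value, level with the table median, and no measure of array background was at hand.

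**Figure D1:**
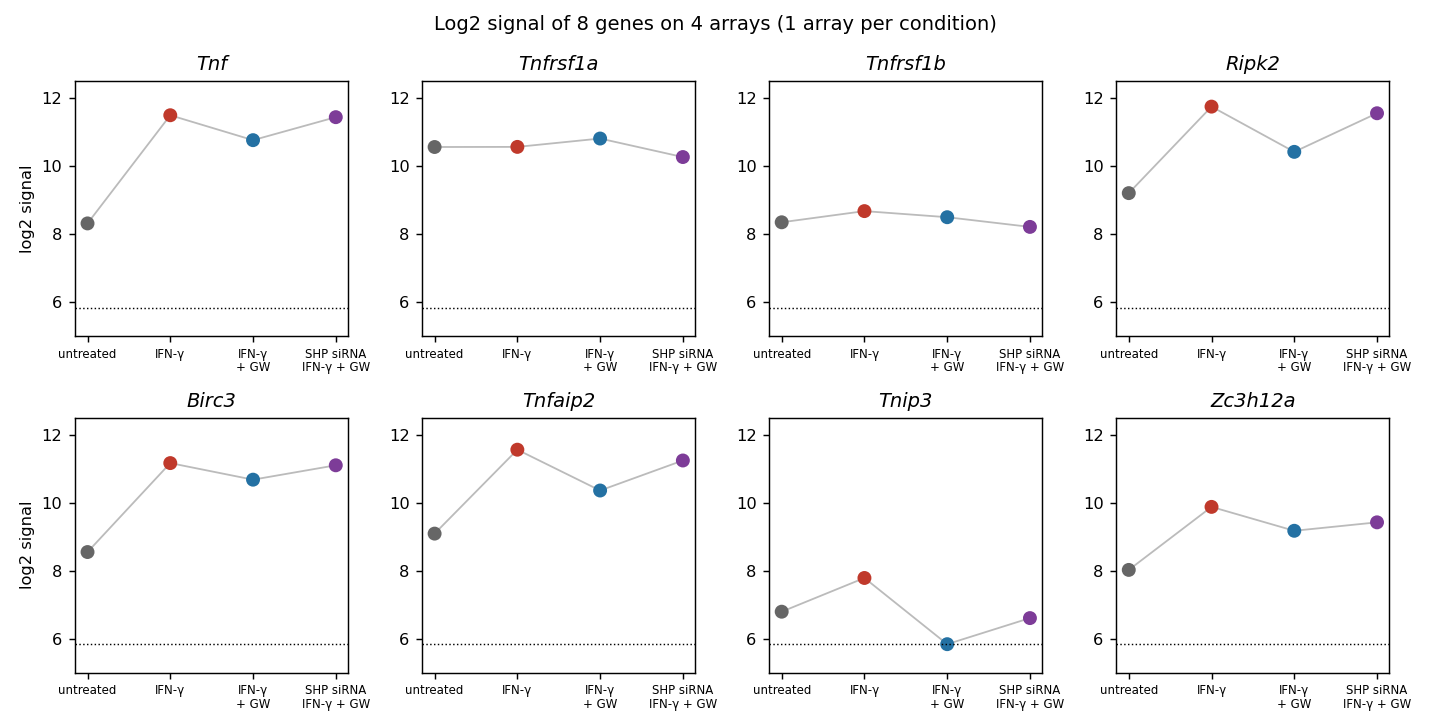
Log2 signal (vertical axes) of the 8 measured genes on the 4 arrays, 1 point per array; grey lines join the points and the dotted line is the table median of 5.83. Tnf goes from 8.31 untreated to 11.49 with IFN-γ, Tnfrsf1a stays between 10.26 and 10.81, and Tnip3 is lowest with IFN-γ and GW at 5.84.

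Adding GW to IFN-γ went with lower values of most of these genes. Tnip3 was 3.86-fold lower than with IFN-γ alone, Ripk2 2.52-fold lower and Tnfaip2 2.30-fold lower, which made 3 of 8 at least 2-fold lower against 0.95% of all genes. None was at least 2-fold higher (0 of 8), against 0.958% of all genes. Because Ripk2 and Tnip3 were chosen on their course here, nothing is read from that count. The median log2 difference of the 8 was -0.72, against -0.05 over all genes, with the middle 95% of all genes between -0.75 and 0.62.

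Tnf itself was 1.66-fold lower with GW, a log2 difference of -0.73 that lay just inside that middle range, and with GW it was still 5.46-fold above the untreated culture. Zc3h12a (-0.70) and Birc3 (-0.49) were also inside it. Ripk2 (-1.33), Tnfaip2 (-1.20) and Tnip3 (-1.95) were outside, and Tnip3 had the 7th lowest difference of 11790 genes. Tnfrsf1b differed by -0.18, and Tnfrsf1a, the 1 member above 0, by 0.25.

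The members thus kept different amounts of the difference from the untreated culture when GW was present. Birc3 was 4.38-fold above untreated with IFN-γ and GW, Tnfaip2 2.41-fold, Ripk2 2.32-fold and Zc3h12a 2.22-fold. Tnip3 was 1.94-fold below untreated, with a log2 difference of -0.96, although IFN-γ alone had it 1.99-fold above. The comparisons with IFN-γ and with GW share the IFN-γ array, added in the first and subtracted in the second.

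**Figure D2:**
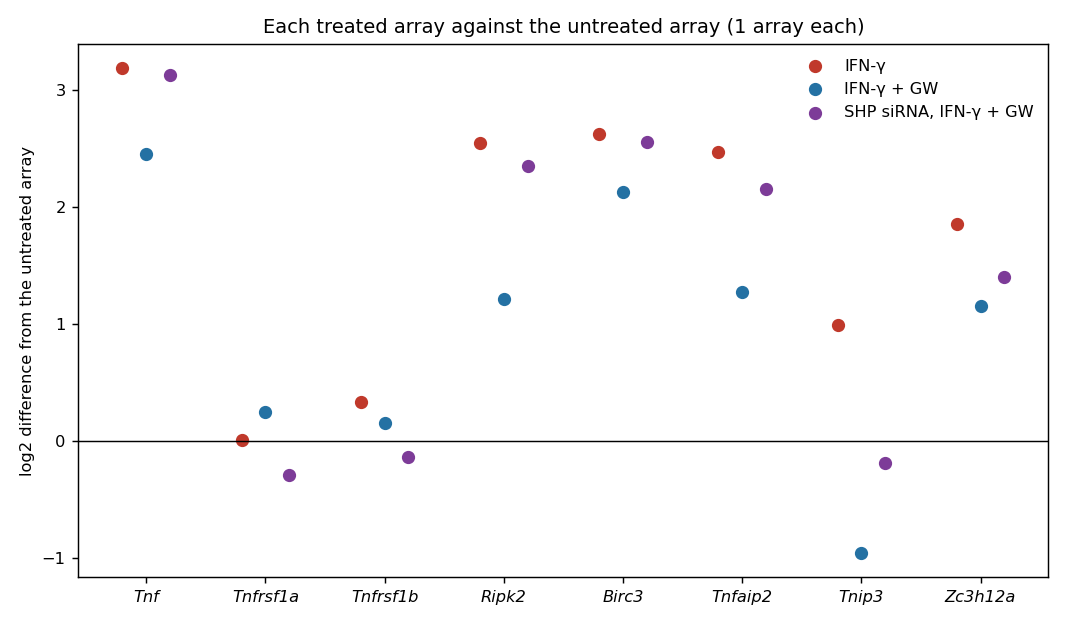
Log2 difference of each treated array from the untreated array (vertical axis) for the 8 genes, 1 point per array and gene. For Tnf, Ripk2, Birc3, Tnfaip2 and Zc3h12a the IFN-γ with GW point lies below both others but above 0, and for Tnip3 it lies at -0.96.

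With SHP siRNA in place of control siRNA, both under IFN-γ and GW, Ripk2 was 2.20-fold higher, Tnfaip2 1.84-fold, Tnip3 1.70-fold and Tnf 1.60-fold. Ripk2 was the 1 member of 8 at least 2-fold higher, where 0.144% of all genes were. None was at least 2-fold lower (0 of 8), where 0.263% were. The median log2 difference of the 8 was 0.55, against 0.01 over all genes. As Ripk2 was chosen on its course in these arrays, its count here carries no weight of its own.

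Ripk2 (1.14), Tnfaip2 (0.88), Tnip3 (0.77) and Tnf (0.68) lay above the middle 95% of genes, which ran from -0.46 to 0.48. Birc3 (0.42) and Zc3h12a (0.25) lay inside it. The receptor genes went the other way, Tnfrsf1a at -0.54, below that range, and Tnfrsf1b at -0.29. The SHP siRNA culture had the lowest value of both receptor genes among the 4 arrays.

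Set beside IFN-γ alone, the culture given SHP siRNA, IFN-γ and GW differed little for Tnf (-0.06), Birc3 (-0.07) and Ripk2 (-0.20). Tnfaip2 (-0.32), Zc3h12a (-0.45), Tnfrsf1a (-0.30) and Tnfrsf1b (-0.46) differed by more but stayed inside the middle 95% of genes, -0.67 to 0.55. Tnip3 was 2.27-fold lower (-1.18), the 1 member outside that range. Tnf, Ripk2, Birc3, Tnfaip2 and Zc3h12a shared 1 order of conditions, from IFN-γ at the top through SHP siRNA and GW to untreated. For Tnf and Birc3 the top pair was within 0.07. The share of all genes with this order is not given, so nothing is read from it here or below. The SHP siRNA and GW comparisons share the IFN-γ with GW array, again with opposite signs.

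**Figure D3:**
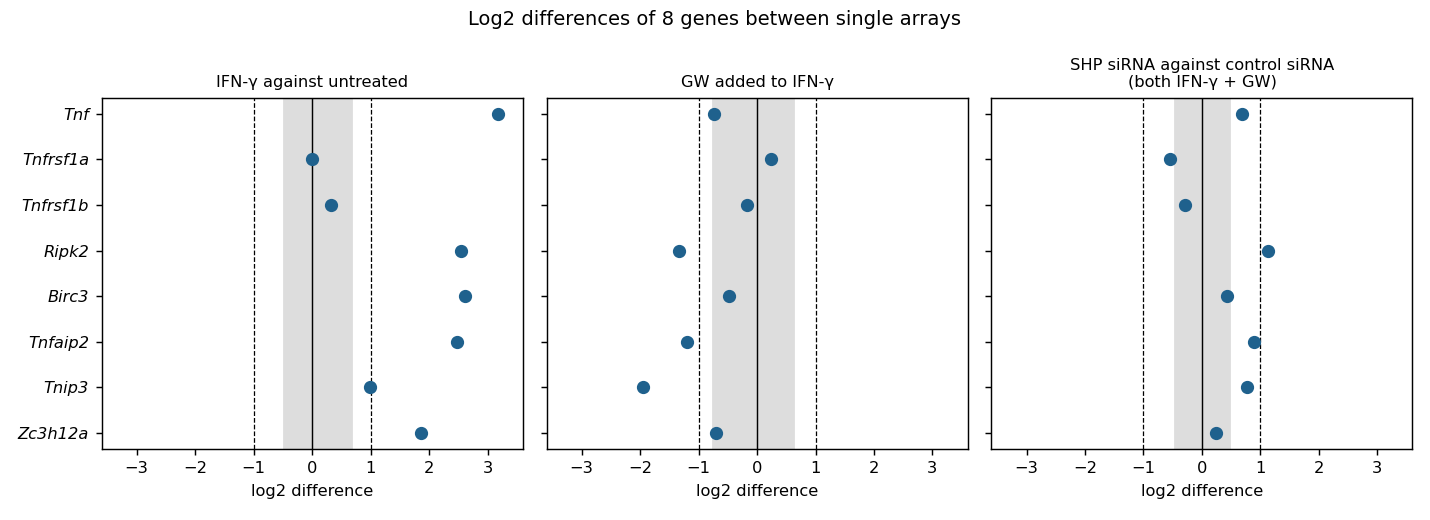
Log2 difference (horizontal axes) of each of the 8 genes in the 3 comparisons, 1 point per gene; the grey band is the middle 95% of 11790 genes and dashed lines mark 2-fold. Tnf lies far right of the band with IFN-γ (3.18), at its left edge with GW (-0.73) and right of it with SHP siRNA (0.68), and both receptor genes lie within or near the band throughout.

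Microglial transcripts moved beside these values. With IFN-γ, 16 of the 18 microglia markers were below their untreated value, with a median of -0.35, while Tnf and its signalling genes were higher. With GW, 16 of 18 were lower than with IFN-γ alone (median -0.48), the direction of 7 of the 8 members. Among them were Tyrobp (-1.22), Ptprc (-1.16) and Cd14 (-1.25). Ptprc (0.23) and Cd14 (0.89) had been higher with IFN-γ, and Cx3cr1 (0.68) and Tmem119 (0.21) were higher with GW. With SHP siRNA 15 of 18 were higher (median 0.17), the direction of 6 of the 8 members. The medians over all genes were -0.04 with IFN-γ, -0.05 with GW and 0.01 with SHP siRNA. The share of all genes on each side of 0 is not given, so nothing is read from the counts by direction in this paragraph. The summed linear signal of the microglia markers went from 18661 untreated to 15931 with IFN-γ, 10554 with GW added and 12014 with SHP siRNA. These were 85.4%, 56.6% and 64.4% of untreated. The summed signal of 10 astrocyte markers was 109%, 97.5% and 116% of untreated. Of the 9 past the filter, 6 were lower with GW (median -0.23) and 6 higher with SHP siRNA (0.19). In these 2 comparisons, the medians were -0.08 and 0.43 for meningeal and fibroblast markers. They were -0.12 and 0.11 for oligodendrocyte lineage markers, and 0.09 and -0.02 for neuron markers. The part of microglia in the members' differences was not tested, and in such cultures fewer cells of a type and less RNA per cell cannot be told apart.

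Other genes of the TNF pathway were listed by role. Of 54 such genes, 49 had a probe and 46 passed the filter. With IFN-γ 8 of those 46 were at least 2-fold higher and 1 lower, where 1.61% and 0.288% of all genes were, and the list counts below are to be read against the same shares. Their median was 0.17 with IFN-γ, -0.16 with GW and 0.03 with SHP siRNA. With GW 1 was at least 2-fold higher and 1 lower, against 0.958% and 0.95% of all genes. With SHP siRNA 0 of 46 reached 2-fold in either direction, against 0.144% and 0.263%.

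In the supply of the ligand, 1 of 4 genes past the filter was at 2-fold. It was Rhbdf2, which encodes iRhom2, the partner that brings the TNF-shedding protease to the cell surface. Rhbdf2 stood at 6.80 untreated, 8.01 with IFN-γ, 7.28 with GW added and 7.92 with SHP siRNA, the same order of conditions as Tnf. The protease gene Adam17 differed by 0.16 with IFN-γ and by -0.58 with GW.

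In the receptor complex and its kinases, 2 of 13 genes were at least 2-fold higher with IFN-γ. They were Birc2 (1.29), which encodes the cIAP1 ligase, and the kinase gene Map3k8 (1.18). The adaptor genes Tradd (-0.09) and Fadd (-0.02) and the kinase gene Ripk1 (0.03) were near 0, and Traf2 was at 0.59. With GW no gene of this list reached 2-fold (0 of 13), the ends being Birc2 at -0.37 and Tab2 at 0.37, and with SHP siRNA the size was greatest for Ikbkb (0.25). The linear ubiquitin genes stayed between -0.28 (Sharpin) and 0.17 (Spata2) with IFN-γ. With GW and with SHP siRNA their greatest sizes were -0.20 for Spata2 and 0.08 for Rbck1. Of the receptor genes upstream of the Ripk2 kinase, Nod1 and Nod2 differed by -0.23 and 0.26 with IFN-γ, by 0.03 and -0.25 with GW, and by -0.08 and -0.14 with SHP siRNA.

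Among the death-related genes, Ripk3, which encodes the kinase of necroptosis, stood at 6.73 untreated, 8.97 with IFN-γ, 7.41 with GW added and 7.98 with SHP siRNA. It was at least 2-fold higher with IFN-γ (2.24) and at least 2-fold lower with GW (-1.55). Cflar, which encodes the caspase-8 inhibitor cFLIP, was at 1.13 with IFN-γ, -0.71 with GW and 0.45 with SHP siRNA. The other 4 genes, among them Casp8 (0.16) and the necroptosis effector gene Mlkl (-0.14), were under 2-fold in all 3 comparisons.

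The other feedback genes did not follow 1 course. With IFN-γ 3 of 13 were at least 2-fold higher, the NF-κB regulator genes Bcl3 (2.27) and Nfkbia (1.81) and Zfp36 (1.44), which encodes tristetraprolin, a protein that destabilises Tnf mRNA. With GW, Bcl3 was lower (-0.89), while Nfkbia (0.27) and Zfp36 (0.97) were higher. Zfp36 thus stood at 10.63, 12.07, 13.04 and 12.94, highest in both cultures with GW. Its relative Zfp36l2 stood at 10.91, 10.61, 11.88 and 11.89, at least 2-fold higher with GW (1.26). With SHP siRNA the 13 genes lay between -0.22 and 0.23. Zc3h12c, the relative of Zc3h12a, was at 0.99 with IFN-γ and -0.35 with GW, and Tnip1, the relative of Tnip3, at 0.46 and -0.62. Among other genes with Tnfaip symbols, Tnfaip8l2 was at least 2-fold lower with IFN-γ (-1.24). Tnfaip8l1 had the greatest size with GW (-0.70) and with SHP siRNA (0.22). The 7 reference genes lay between -0.21 (Pgk1) and 0.10 (Tbp) with IFN-γ, with Hprt1 at -0.45 with GW and Rplp0 at 0.37 with SHP siRNA.

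**Figure D4:**
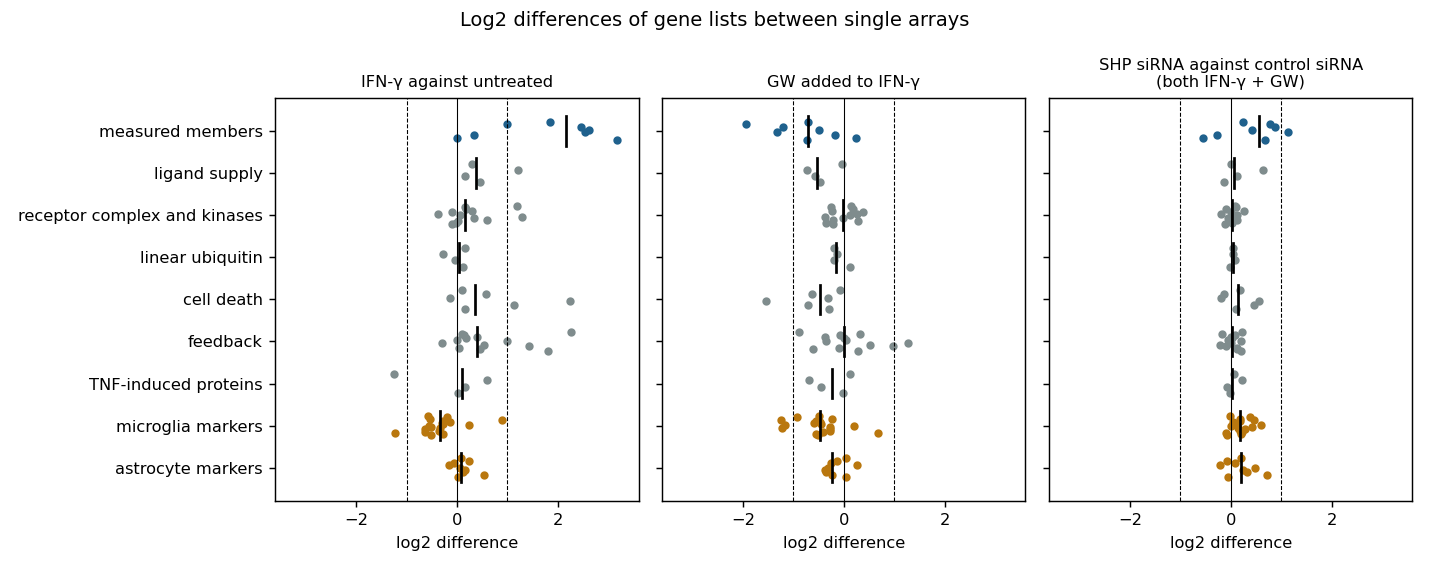
Log2 difference (horizontal axes) of the measured members, 6 lists of other TNF pathway genes and the microglia and astrocyte markers in the 3 comparisons, 1 point per gene past the filter; black bars are list medians and dashed lines mark 2-fold. The members' median of 2.16 with IFN-γ stands beside 0.41 for the other feedback genes and -0.35 for the microglia markers.

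The genes with the most similar course were found for each member at 2-fold in a comparison, so not for the receptor genes. The measure was the Euclidean distance between log2 profiles over the 4 arrays, each gene centred on its own mean, among 11790 genes. Nearest to Tnf were Cd83 (distance 0.33), Stx11 (0.37), Birc3 (0.47), Irf1 (0.48) and the chemokine gene Ccl4 (0.52). For Birc3 they were Stx11 (0.12), Nfkbid (0.21), Bmp2 (0.21), Ccl4 (0.28) and Irf1 (0.32). Ripk2 lay nearest to Tnfsf15 (0.16) and then to Tnfaip2 (0.19), followed by Zfp46 (0.33), Il1a (0.44) and Cxcr5 (0.46). Tnfaip2 had Zfp46 (0.17), Tnfsf15 (0.18), Ripk2 (0.19), Ch25h (0.30) and Il1a (0.34). Zc3h12a had Ptger4 (0.24), Nt5c1a (0.25), Nfkbie (0.28), Bcl3 (0.29) and Pmaip1 (0.30). Among the members at 2-fold in a comparison, which leave out the receptor genes, Tnip3 was apart, the closest, Zc3h12a, being 1.59 away. Its nearest genes were Srgn (0.20), Il7r (0.25), Gpr65 (0.28), Rwdd2a (0.29) and Ccl12 (0.34). Srgn, which encodes the granule proteoglycan serglycin, stood at 8.04, 8.96, 7.23 and 8.02 in the order untreated, IFN-γ, GW added and SHP siRNA, and like Tnip3 was below its untreated level with GW. Untreated values of Cxcr5 (4.75) and Nt5c1a (4.95) lay below 5.83. So did Rwdd2a with GW added (5.42) and with SHP siRNA (5.79), and the distances of these genes are uncertain. With 4 arrays such distances describe these cultures only.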

How the data were processed

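Single-colour arrays were hybridised with biotin-labelled sense cDNA made from total RNA, 1 array for each of 4 conditions, per the labels' protocols. The deposited table holds 1 value for each of 29489 probes on each array, taken as log2 signal because the values run from 1.14 to 13.4. The sources used here do not give the log base, background correction or normalization, so all folds rest on that reading. Probes with a single symbol in the platform annotation were named through RefSeq (rat assembly GRCr8), and a gene was represented by its probe of highest mean signal.

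Each comparison is a difference of log2 values between 2 arrays, counted at 2-fold, with no test. The members and lists were chosen with earlier results of these data known. Named genes were all members, list genes at 2-fold or with the greatest difference, and the 5 nearest profiles. Other list genes given with values were named outside that rule, after their values were seen. The TATA box, and the choice of windows lying outside the gene, were added after seeing the data. The alternatives were median centring, quantile normalization, cyclic loess, the mean of a gene's probes, a filter on the mean or none, and thresholds of 1.5-fold and 3-fold. Quantile and loess scaling used limma 3.58.1 in R 4.3.3, and the other steps Python 3.11.15. The steps were run on simulated data with added shifts well above the 2-fold threshold. That checks the computation only and says nothing of variation between cultures or arrays.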

Additional observations from a re-analysis of the deposited data

How the results depend on the processing

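No paired analysis was possible because each condition has 1 array and the labels give no replicate numbers, and leaving out an array would leave a condition without data. The 24 differences of the 8 members in the 3 comparisons were recomputed under 3 other scalings and with the mean of a gene's probes, 96 values in all. None moved by 0.2 log2 or more (0 of 96), the greatest move being 0.11 and that of Ripk2 with GW, and no difference at 2-fold turned its sign. Each member has 1 probe, so the mean of probes changed none of their values. The counts of members at 2-fold changed by more than 1.5 times only with the threshold. With GW, 5 members were lower at 1.5-fold and 1 at 3-fold, against 4.97% and 0.221% of all genes. With SHP siRNA, 4 were higher at 1.5-fold and 0 at 3-fold, against 1.42% and 0.0085%. A planned pseudocount for linear values was not needed. Without a detection call, how far Tnip3 with GW lies above the background of the array is unknown.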

Other observations

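Relatives of Tnf and of its receptors were read on the same arrays. Of 38 genes for other ligands and receptors of the TNF superfamily, 26 passed the filter, with 5 at least 2-fold higher and 0 lower with IFN-γ, where 1.61% and 0.288% of all genes were. With GW 0 were higher and 3 lower (0.958% and 0.95% of all genes), and with SHP siRNA 2 were higher and 0 lower (0.144% and 0.263%). The ligand gene Tnfsf15, which encodes the T cell costimulator TL1A, stood at 7.43 untreated, 9.76 with IFN-γ, 8.58 with GW added and 9.66 with SHP siRNA, the order of conditions seen for Tnf. Tnfsf18, the ligand gene of the receptor GITR, had log2 differences of 2.78 with IFN-γ, -2.50 with GW and 1.00 with SHP siRNA. Its values of 4.22 untreated, 4.50 with GW added and 5.50 with SHP siRNA lay below 5.83, so those sizes are uncertain. Tnfsf4, the OX40 ligand gene, was at 1.22 with IFN-γ, also from a value below 5.83.

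Of the receptor genes, Cd40, the costimulatory receptor of antigen-presenting cells, stood at 6.32, 7.99, 6.75 and 7.32, and the death receptor gene Fas at 8.93, 10.44, 9.55 and 10.14, both in that same order of conditions. Tnfrsf12a, the receptor gene for the ligand TWEAK, was instead highest with GW, at 8.43, 8.86, 9.64 and 8.70. The other superfamily genes past the filter were under 2-fold in all 3 comparisons, and across the 26 genes the median was 0.08 with IFN-γ, -0.17 with GW and 0.03 with SHP siRNA.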
